A study of Mus musculus with 8 samples.

Results

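The genes described here encode the beta and FXYD subunits of the Na/K-ATPase, the membrane enzyme that digoxin binds and inhibits, and the sodium-calcium exchanger that works beside it in heart muscle. They are Atp1b1, Atp1b2, Atp1b3, Fxyd1, Fxyd5 and Slc8a1, chosen by their roles, and these 6 are taken from 22180 genes tested. Each is represented by 1 probe set that names no other gene, 17229178 for Atp1b1, 17264792 for Atp1b2, 17529793 for Atp1b3, 17489420 for Fxyd1, 17489399 for Fxyd5 and 17347619 for Slc8a1. Heart RNA came from male wild-type mice aged 8 to 10 weeks of the strain C57BL6JRj (C57BL6/J in the protocol), kept in 12 h of light and 12 h of dark. Digoxin hearts (5 arrays) followed a single intraperitoneal injection at 1 mg/kg, and vehicle hearts (3 arrays) an injection of a solvent of ethanol, propylene glycol, citric acid and sodium phosphate. Injections were given at ZT5 and hearts taken at ZT9, where ZT0 is lights-on. The design text speaks of 4 vehicle samples, and the labels used here list 3. Each array is 1 labelled sample, and nothing in the labels says whether animals were pooled, so the p-values reflect the spread from sample to sample, which may be partly technical.

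The Na/K-ATPase moves sodium out of the cell and potassium in. Its alpha subunit carries the ATP site and the pocket for cardiac glycosides, its beta subunit brings the alpha subunit to the cell surface, and FXYD proteins tune its activity. When the pump is inhibited, sodium rises in the cardiomyocyte, the sodium-calcium exchanger extrudes less calcium, and contraction strengthens, which is the classical account of digitalis action.

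None of the 6 genes changed after digoxin in limma at an adjusted p of 0.05, and 0 of 6 had an unadjusted p under 0.05. Over all genes tested, 1.36% passed the adjusted threshold and 12.3% had an unadjusted p under 0.05, so a count of 0 among 6 genes lies near the background. Log2 changes of digoxin against vehicle hearts lay between -0.095 (Fxyd5) and 0.12 (Atp1b1), 3 above and 3 below 0, with a median of 0.0072 against -0.011 over all genes tested. The groups overlapped in all 6 genes, while 8.16% of all genes tested had groups without overlap. Each probe set's log2 expression was centred on a level that is not stated. Such values give differences between arrays and not abundance, and levels of different genes cannot be compared.

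Among the beta subunits, Atp1b1 encodes beta-1, the main beta subunit of heart muscle. Its centred log2 values in digoxin hearts were 0.075, 0.109, 0.128, -0.115 and 0.034 for replicates 1 to 5, and in vehicle hearts -0.0092, -0.109 and -0.115 for replicates 1 to 3. Digoxin replicates 1, 2, 3 and 5 lay above all 3 vehicle arrays, and digoxin replicate 4 lay level with the lowest of them. The means were 0.046 ± 0.097 (SD, n = 5) and -0.078 ± 0.059 (SD, n = 3). The log2 change was 0.12 (SE 0.062, 95% interval -0.018 to 0.27, limma adjusted p = 0.473), a ratio of 1.09 with an interval of 0.988 to 1.20. Of all genes tested, 74.1% had a smaller change in size.

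Without digoxin replicate 4, the 4 other digoxin arrays did not overlap the vehicle arrays in Atp1b1, and the log2 change was 0.16 (95% interval 0.052 to 0.28). The adjusted p in limma was then 0.226, so the gene did not pass in that fit either. In 4 of 18 alternative fits the interval for Atp1b1 lay above 0, and the lowest limma adjusted p in any of them was 0.226. The 4 include the fit above, the fit with array weights and the fit with the replicate number as a block. Digoxin replicate 4 had the lowest weight of the digoxin arrays (0.73), and it did not enter the change in the block fit. The 4 fits are therefore not separate results. The exact permutation p (two-sided, 8 arrays) was 0.125, where the smallest that this design allows is 0.0179.

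Atp1b2 encodes beta-2, also known as an adhesion molecule on glia. It had the widest spread of the 6 genes, with values of -0.268, 0.242, 0.055, -0.247 and 0.101 in digoxin replicates 1 to 5 and 0.026, 0.138 and -0.118 in vehicle replicates 1 to 3. Digoxin hearts held both the highest and the lowest arrays, replicate 2 at the top and replicates 1 and 4 at the bottom. Atp1b2 stood at a log2 change of -0.038 (95% interval -0.32 to 0.24, limma adjusted p = 0.932), and it was above 0 without digoxin replicate 1 or 4 or vehicle replicate 2. The residual SD of Atp1b2 was 0.198, larger than that of 92.4% of all genes tested.

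Atp1b3 encodes beta-3, a broadly expressed beta subunit. Its values were 0.193, 0.1000, 0, 0.126 and -0.131 in digoxin replicates 1 to 5, and 0.100, 0.042 and -0.129 in vehicle replicates 1 to 3. The lowest arrays of the groups lay at nearly the same level, and 2 digoxin arrays lay above all vehicle arrays. The log2 change was 0.053 (95% interval -0.13 to 0.24, limma adjusted p = 0.837), and without vehicle replicate 3 it stood at -0.014.

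**Figure D1:**
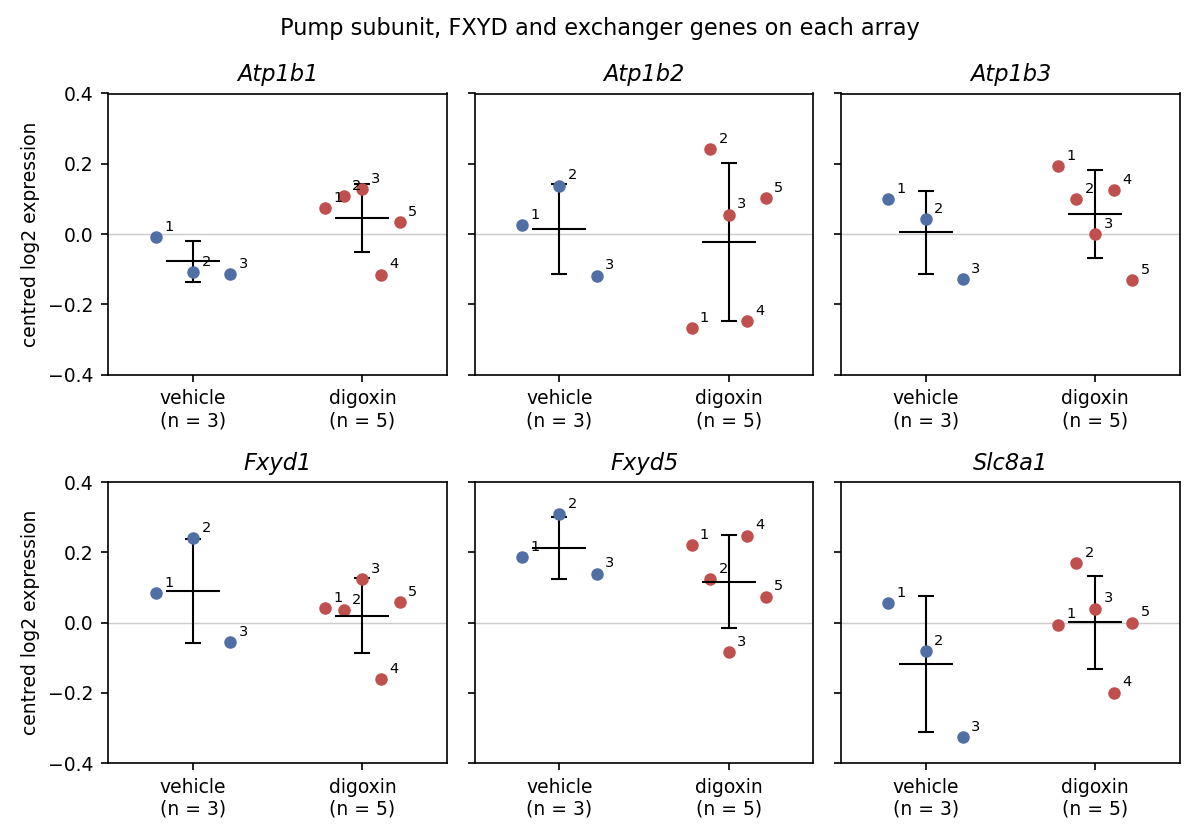
Centred log2 expression of the 6 genes (y axis, same scale in each panel) in vehicle hearts (blue, n = 3) and digoxin hearts (red, n = 5). Each point is 1 array with its replicate number, and bars show the mean and SD; the groups overlap in every panel, and in Atp1b1 digoxin replicate 4 lies at the level of the lowest vehicle array and the other 4 digoxin arrays lie above all vehicle arrays.

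Fxyd1 encodes phospholemman, the FXYD protein of heart and skeletal muscle, which restrains the pump until it is phosphorylated. Centred log2 values were 0.041, 0.036, 0.123, -0.162 and 0.058 in digoxin replicates 1 to 5 and 0.084, 0.240 and -0.055 in vehicle replicates 1 to 3. No digoxin array lay above all vehicle arrays, 4 lay within their range, and replicate 4 lay below it. Fxyd1 stood at a log2 change of -0.070 (SE 0.081, 95% interval -0.26 to 0.11, limma adjusted p = 0.771). It moved from -0.14 without vehicle replicate 3 to 0.0050 without vehicle replicate 2.

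Fxyd5 encodes dysadherin, an FXYD protein best known from epithelia, where it modulates the pump and cell adhesion. Its values were 0.220, 0.124, -0.085, 0.247 and 0.074 in digoxin replicates 1 to 5, and 0.186, 0.309 and 0.140 in vehicle replicates 1 to 3. Digoxin replicates 2, 3 and 5 lay below all vehicle arrays, and replicates 1 and 4 lay within their range. The log2 change was -0.095 (SE 0.080, 95% interval -0.28 to 0.086, limma adjusted p = 0.672), and with 1 array left out it lay between -0.13 (without vehicle replicate 3) and -0.045 (without digoxin replicate 3). It had the lowest log2 change of the 6 genes, a ratio of 0.936 with an interval of 0.825 to 1.06.

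Slc8a1 encodes NCX1, the sodium-calcium exchanger of the cardiomyocyte membrane and its chief route of calcium extrusion. The centred log2 values were -0.0058, 0.170, 0.039, -0.199 and 0 in digoxin replicates 1 to 5 and 0.056, -0.082 and -0.326 in vehicle replicates 1 to 3. Vehicle replicate 3 was the lowest array, and 4 of 5 digoxin arrays lay within the vehicle range. The log2 change was 0.12 (SE 0.100, 95% interval -0.11 to 0.35, limma adjusted p = 0.674). It rested largely on vehicle replicate 3, since without that array it was 0.014, and without vehicle replicate 1 it was 0.21 (limma adjusted p = 0.342).

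Vehicle replicate 3 and digoxin replicate 4 also stood apart over the whole table. The SD of centred values was 0.224 on vehicle replicate 3 and 0.197 on digoxin replicate 4, against 0.114 to 0.153 on the other arrays. The interquartile range set only vehicle replicate 3 clearly apart. It was 0.216 there and 0.115 on digoxin replicate 4, against 0.0792 to 0.107 on the other arrays. Digoxin replicate 4 held the lowest digoxin value in 3 of the 6 genes, Atp1b1, Fxyd1 and Slc8a1. On the same array the mean of 7 leukocyte markers was 0.78, against -0.093 to -0.034 on the other digoxin arrays and -0.089 to 0.14 on vehicle arrays. The mean of 5 mesothelium markers was 0.49 there, against -0.085 to 0.096 on the other digoxin arrays and 0.15 to 0.24 on vehicle arrays. The mean of 6 smooth muscle and pericyte markers was 0.31, 0.20 and 0.33 on digoxin replicates 1, 2 and 4, above the vehicle arrays at 0.0037 to 0.12, and 0.012 and 0.066 on replicates 3 and 5. Means of 6 atrial cardiomyocyte markers ran from -0.51 to 2.02 in digoxin hearts and from 0.33 to 2.56 in vehicle hearts. For 8 ventricular cardiomyocyte markers the means ran from -0.057 to 0.046 in digoxin hearts and from -0.057 to 0.028 in vehicle hearts. For 6 endothelium markers they ran from -0.13 to -0.054 in digoxin and from -0.20 to 0.011 in vehicle hearts. For 6 fibroblast markers they ran from -0.084 to 0.10 in digoxin and from -0.044 to 0.20 in vehicle hearts. In all, 11 marker lists were written, and no marker of any list passed in limma. The blood list was not analysed here, and 5 of 6 smooth muscle and pericyte, 3 of 7 leukocyte, 1 of 5 mesothelium and 0 of 6 atrial markers had higher means in digoxin hearts. Centred values do not show whether a marker is present. The part of these markers in the values of the 6 genes was not tested, and in bulk RNA fewer cells of a type and less RNA per cell cannot be told apart. Labels number the vehicle arrays 10 to 12 and the digoxin arrays 13 to 17, so the order of the arrays cannot be told apart from treatment.

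The intervals give the range of change that each gene's arrays left possible. They reached from 0.80 to 1.18 times the vehicle level for Atp1b2, from 0.911 to 1.18 for Atp1b3, from 0.838 to 1.08 for Fxyd1 and from 0.927 to 1.27 for Slc8a1. At its own SE, and at the smallest moderated t among genes that passed (5.13), Atp1b1 would have needed a log2 change of 0.32 to pass. The same figure was 0.42 for Atp1b3 and Fxyd1, 0.41 for Fxyd5, 0.51 for Slc8a1 and 0.64 for Atp1b2. Observed changes smaller than these would not have been called at the same SE. The figures do not set a limit on the true change that 8 arrays can detect. Over all alternative fits the intervals stayed between -0.43 (Atp1b2) and 0.44 (Slc8a1).

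**Figure D2:**
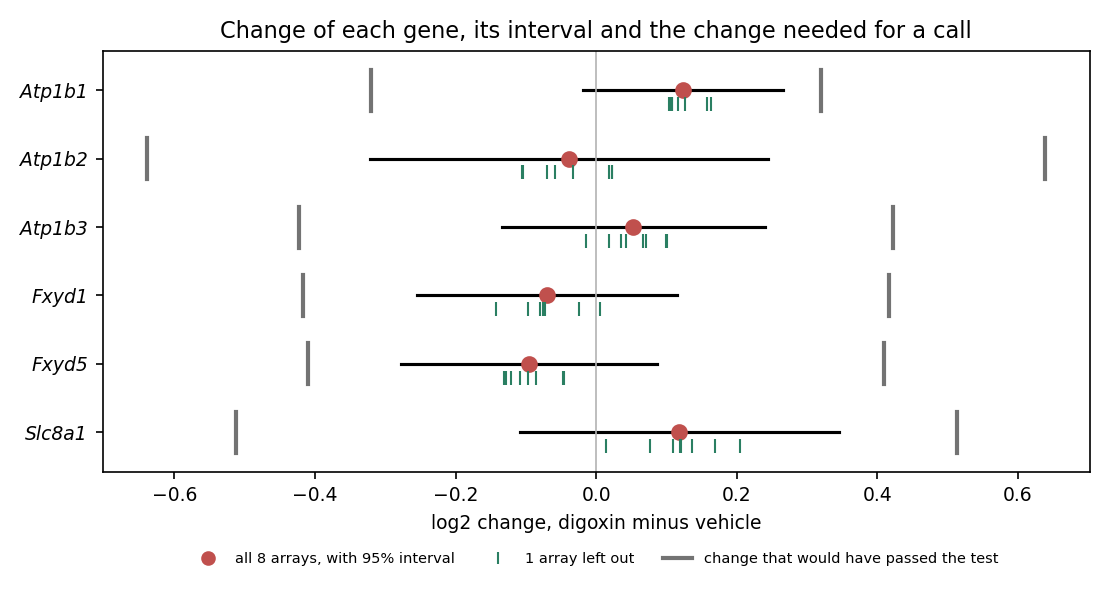
Log2 change of digoxin against vehicle hearts (x axis) for the 6 genes. Red points with black lines are the change and its 95% interval over 8 arrays, green ticks are the change with 1 array left out, and grey bars mark the change that would have passed the test at that gene's SE; every interval crosses 0 and lies inside the grey bars.

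Subunit genes related to these, of the same pump and of the H/K-ATPase, gave no call among those measured. These were 9 of 13 listed, Atp1a4, Atp1b4, Fxyd2, Fxyd4, Fxyd6, Fxyd7, Atp4a, Atp4b and Atp12a, and the others were not analysed here. Atp1a4 was the only alpha subunit gene of the Na/K-ATPase among the 9. The alpha subunits that bind digoxin in heart are therefore not covered by these results. All 9 had lower means in digoxin hearts, with log2 changes from -0.19 (Atp1a4, the alpha subunit of sperm) to -0.013 (Atp12a). Lower means were also found in 12328 of all 22180 genes tested. In Atp1a4, vehicle replicate 3 stood at 0.60, against -0.11 to 0.099 on all other arrays. In Atp4a, vehicle replicate 3 stood at 0.35, against -0.070 to 0.10 on all other arrays. The median log2 change of the 9 genes was -0.083 against -0.011 over all genes tested. Fxyd7, a brain FXYD gene, had the smallest p of them, with values of -0.078, -0.0081, -0.101, 0 and 0.026 in digoxin replicates 1 to 5 and 0, 0.059 and 0.152 in vehicle replicates 1 to 3. Its log2 change was -0.10 (95% interval -0.22 to 0.013, limma adjusted p = 0.468), and it was -0.062 without vehicle replicate 3. Atp1b4, a beta-like gene of muscle, stood at -0.15 (limma adjusted p = 0.471), and -0.053 without vehicle replicate 3. Fxyd2, the gamma subunit of kidney, stood at -0.11 (limma adjusted p = 0.543), and -0.041 without vehicle replicate 2.

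Sodium enters and leaves the cardiomyocyte by other routes too, and their genes gave no call. Of 20 other sodium exchangers and cotransporters, 16 were measured and none passed in limma, with 6 higher and 10 lower in digoxin hearts and a median log2 change of -0.026. The unadjusted p was under 0.05 in 3 of them, against 12.3% of all genes tested. Slc4a4, a sodium bicarbonate cotransporter gene, stood at 0.17 (95% interval 0.025 to 0.32, limma adjusted p = 0.323), with groups that did not overlap. The groups were also apart, in the other direction, in Slc4a5 (-0.082), which made 2 of 16 against 8.16% of all genes tested. Slc9a3, a sodium-proton exchanger gene of epithelia, stood at -0.18, and at -0.0999 without vehicle replicate 3. Slc8b1, which encodes the sodium-calcium exchanger of mitochondria, stood at -0.14, and at -0.090 without vehicle replicate 2. The other plasma membrane paralogues of Slc8a1 had log2 changes of 0.023 (Slc8a2) and -0.046 (Slc8a3).

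Of 14 sodium channel genes, 11 were measured and none passed in limma, with a median log2 change of -0.076. Those of smallest p were the channel subunit genes Scn3a (0.16), Scn3b (-0.11) and Scn10a (-0.076), with limma adjusted p values of 0.436 to 0.513. Without vehicle replicate 2, Scn3b stood at -0.070.

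Calcium handling genes, whose proteins work on the calcium that the exchanger leaves in the cell, were measured in full, and 0 of 20 passed in limma. Their median log2 change was 0.0082. The inositol trisphosphate receptor gene Itpr2 stood at 0.31 (95% interval 0.037 to 0.58, limma adjusted p = 0.340). Atp2b1, a plasma membrane calcium pump gene, stood at 0.14, and 0.049 without vehicle replicate 3, and the calcium channel subunit gene Cacnb2 stood at -0.10. Cacnb2 is the mean of 2 probe sets, of which that of smaller p stood at -0.23 (limma adjusted p = 0.121), and the mean was -0.060 with array weights and -0.067 without vehicle replicate 1. Atp2a2, the calcium pump gene of the sarcoplasmic reticulum, had a log2 change of -9.3e-05 (95% interval -0.080 to 0.080). This was the narrowest interval named here. Sln, a regulator of that pump in atria, had the largest difference of the list at -1.47, with an interval of -3.98 to 1.04. It is also 1 of the 6 atrial markers above, whose array means ranged over more than 2 log2 units in each group.

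The calls among the related lists lay in 2 lists, 1 of genes linked to control of the pump and 1 of its anchors and signalling partners. Of 16 genes linked to control of the pump, 2 rose in limma, none fell and 14 did not pass. They are mostly kinases, ligases and receptors, but also include the steroid enzyme gene Hsd11b1. Of 13 measured anchors and signalling partners 1 rose, none fell and 12 did not pass. Over all genes tested, 0.947% rose and 0.415% fell. Both lists were written with earlier results of these data known, so their counts cannot show an excess of calls. The median log2 changes of these lists were 0.056 and 0.085.

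Sgk1 encodes a kinase that corticosteroids induce and that raises sodium transport at the cell surface. Its centred log2 values were 0.70, 0.51, 0.60, 0.64 and 0.55 in digoxin replicates 1 to 5 and -0.23, -0.29 and -0.53 in vehicle replicates 1 to 3. All 5 digoxin arrays lay above all vehicle arrays. Sgk1 rose by 0.95 on the log2 scale (SE 0.075, 95% interval 0.78 to 1.12, limma adjusted p = 0.00057). Hsd11b1, whose enzyme regenerates active glucocorticoid inside cells, lay between 0.32 and 0.42 in digoxin hearts and between -0.25 and -0.069 in vehicle hearts. It rose by 0.52 (SE 0.052, limma adjusted p = 0.0020). Egfr, a receptor tyrosine kinase that the inhibited pump can engage through Src, lay between 0.34 and 0.49 in digoxin hearts and between -0.33 and 0 in vehicle hearts. It rose by 0.55 (SE 0.075, limma adjusted p = 0.0099).

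**Figure D3:**
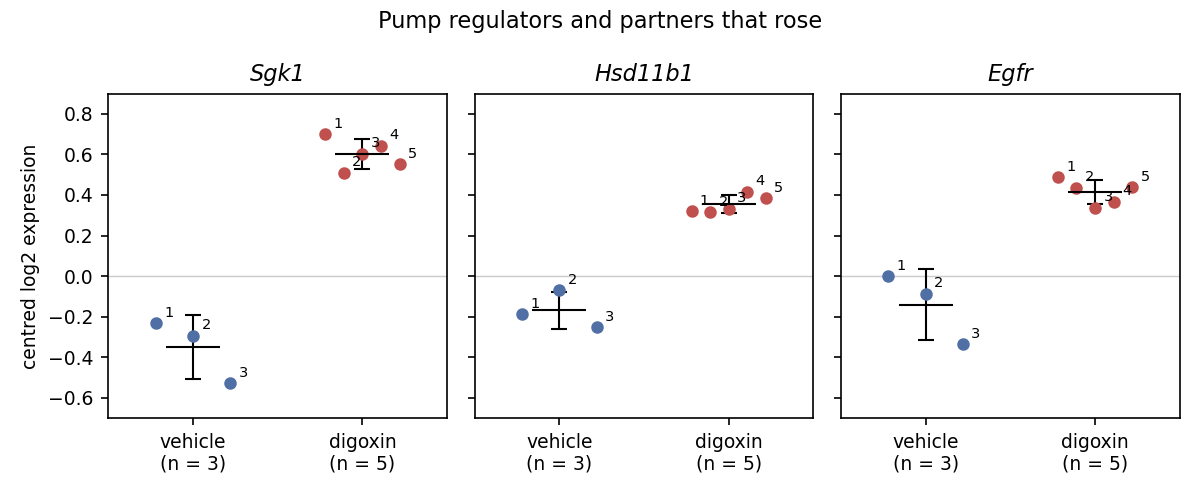
Centred log2 expression of Sgk1, Hsd11b1 and Egfr (y axis, same scale) in vehicle hearts (blue, n = 3) and digoxin hearts (red, n = 5), with each array's replicate number and bars for mean and SD. All 5 digoxin arrays lie above all 3 vehicle arrays in each gene.

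**Figure D4:**
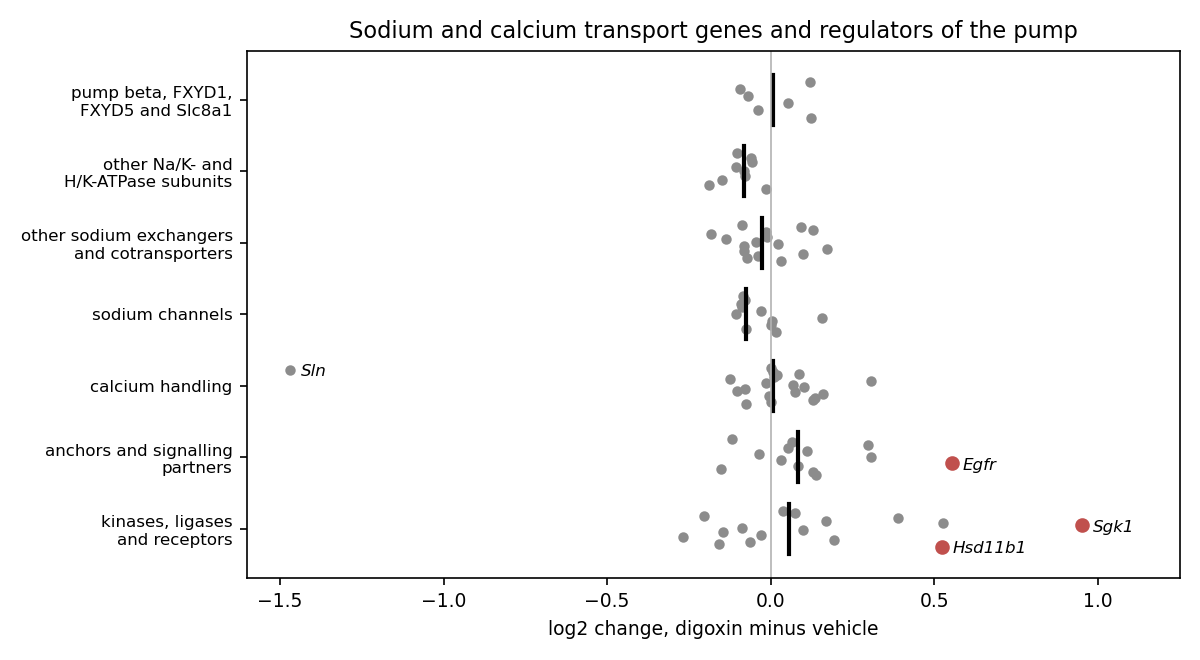
Log2 change of digoxin against vehicle hearts (x axis) for the 6 genes in the top row and for 85 measured genes of 6 related lists below, 1 point per gene, with black bars at list medians. Red points passed limma at an adjusted p of 0.05; Sgk1, Hsd11b1 and Egfr are the only such points, and Sln at -1.47 did not pass.

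Promoter windows of the 6 genes and of Sgk1 were searched for a letter sequence bound by corticosteroid receptors. RefSeq windows of GRCm38.p6, from 250 bases before to 50 after a transcript start, were matched by symbol for 5 of the 6 genes, with 2 windows for Atp1b3. The full palindrome, AGAACA and TGTTCT with any 3 bases between them, is an exact form of the response element of the glucocorticoid and mineralocorticoid receptors. It was found in 3 of 32851 windows (0.00913%) and in 0 of the 6 windows of these genes. At so low a share, a count of 0 in 6 windows says nothing particular about these genes. Among the windows that held it was 1 of 6 windows of Sgk1, while the windows of Hsd11b1 and Egfr, which also rose, held 0 palindromes. The shorter letters TGTTCT, the right arm of that palindrome, were searched on both strands and found in 19% of all windows, in 0 of the 6, and in 0 of the windows of Hsd11b1 and Egfr. Of these 3 genes that rose, 1 held the palindrome, but Sgk1 had 6 windows to search and Hsd11b1 and Egfr had 1 each. The GC box GGGCGG, a letter sequence bound by Sp1, was found on either strand in 35.7% of all windows, in the Atp1b1 window and in 1 of the windows of Atp1b3. The search was chosen after the values of Sgk1 were seen, and it covers these windows alone. Both windows below are printed to set the start of a pump gene that did not pass beside that of the regulator that rose most, at chr1:164458306-164458605 (minus strand) for Atp1b1 and chr10:21993640-21993939 (plus strand) for Sgk1. Capitals mark the GC boxes, here CCGCCC on the printed strand, in Atp1b1 and the palindrome in Sgk1. The printed Sgk1 window also holds 1 GC box, which is not marked. On either strand, TGTTCT was found 3 times in that window, the arms of the palindrome included.
Atp1b1: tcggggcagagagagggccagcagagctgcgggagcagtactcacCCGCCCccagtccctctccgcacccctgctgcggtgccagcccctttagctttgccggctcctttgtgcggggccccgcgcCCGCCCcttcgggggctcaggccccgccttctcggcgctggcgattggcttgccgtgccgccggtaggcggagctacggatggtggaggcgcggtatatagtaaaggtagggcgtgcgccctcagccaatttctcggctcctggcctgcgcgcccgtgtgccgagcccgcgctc
Sgk1: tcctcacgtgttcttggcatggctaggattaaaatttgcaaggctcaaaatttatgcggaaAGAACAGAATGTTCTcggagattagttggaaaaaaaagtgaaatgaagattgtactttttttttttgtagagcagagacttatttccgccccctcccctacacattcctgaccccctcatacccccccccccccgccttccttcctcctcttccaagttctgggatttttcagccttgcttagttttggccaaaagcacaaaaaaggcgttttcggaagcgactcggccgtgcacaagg

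The genes next to the 6 on their chromosomes, taken as the nearest protein-coding gene on either side in the RefSeq table where measured, gave 1 call. Fxyd1 and Fxyd5 have Fxyd7 as a common neighbour, and Fxyd7 (-0.10), Fxyd1 (-0.070) and Fxyd5 (-0.095) all had lower means in digoxin hearts without passing the test. Lgi4 on the far side of Fxyd1 stood at -0.17 (limma adjusted p = 0.299) and Fam187b beyond Fxyd5 at -0.081. Next to Atp1b1, Nme7 stood at 0.028 and Dpt, the gene of the matrix protein dermatopontin, at -0.085. Shbg next to Atp1b2 stood at -0.026, and Thumpd2 and Pkdcc on either side of Slc8a1 at 0.19 and -0.099. The exception was Tfdp2, a partner of E2F transcription factors and neighbour of Atp1b3, which rose by 0.43 (SE 0.072, limma adjusted p = 0.026). Rnf7 on the other side of Atp1b3 stood at 0.024. The call of Tfdp2 ended without digoxin replicate 1, 2, 3 or 5 (highest adjusted p = 0.0775 in limma).

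Likeness of pattern was measured as Pearson's r with each of 17282 named genes over the 8 arrays and is given as a description. The 3 genes most like Atp1b1 were Larp1b (0.97), Etfa (0.96), which encodes a subunit of the mitochondrial electron transfer flavoprotein, and Hsdl2 (0.94). For Slc8a1 they were Fbxo25 (0.98), Vps37a (0.98) and Zfp119b (0.98). Cuta (0.97), Bpifa6 (0.97) and Klc4 (0.97) were most like Fxyd1, and Thbs3 (0.96), Zfp423 (0.95) and Pmvk (0.94) were most like Fxyd5. For Atp1b3 the genes were Sypl (0.96), Erbin (0.94) and Zfr (0.93), and for Atp1b2 C8g (0.94), Lamb1 (0.92), a laminin gene, and Cyp2a5 (0.92). None of these 18 genes passed in limma, and their adjusted p values lay between 0.512 and 0.953. These genes were picked as the closest of many over few arrays.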

How the data were processed

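Heart RNA was measured on 8 arrays of the type Affymetrix Mouse Gene 2.0 ST. Per the series design text, the authors used Robust Multi-array Average within the GIANT Galaxy tools. The submitters' processing notes name limma, with versions not given in the sources used here. As deposited, the log2 values appear centred by probe set (21739 of 34351 hold a value of exactly 0), and the base is taken as that of the method. The centre is not stated, and a constant cancels in differences between arrays.

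Probe sets with exactly 1 symbol in the platform annotation (23521) were averaged per gene, which gave 22180 genes. Several symbols were held by 1814 probe sets and none by 9016. Groups were compared in R 4.3.3 with limma 3.58.1 (eBayes on lmFit, two-sided, no covariate, Benjamini-Hochberg adjustment over all genes, threshold 0.05). The fit had 6 residual and 2.75 prior degrees of freedom, whose sum gives the 95% intervals. The 6 genes, 6 related lists and 11 marker lists were chosen with earlier results of these data known. Beside the 6, genes named are those of each list that passed, or else the 3 of smallest p, the nearest neighbours and the 3 most alike. Atp1a4, Atp4a, Atp12a, Slc4a5, Slc8a2, Slc8a3, Atp2a2 and Sln were named after their values were seen. No 2 arrays were identical.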

Additional observations from a re-analysis of the deposited data

Results flagged for a closer look

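Among 30 named genes, the 5 digoxin arrays of Itpr2 held a value far from the others. Digoxin replicate 4 stood at 0.67 on the centred log2 scale, against 0.29 for the next array, a gap of 0.734 of the whole range where 0.71 is the 95% critical value. None of the 6 pump and exchanger genes had such a value among the digoxin arrays, and vehicle arrays were not examined in this way. Chance marks about 1 in 20 groups this way. Without digoxin replicate 4 the log2 change of Itpr2 was 0.21, against 0.31 with all arrays.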

How the results depend on the processing

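None of the 6 pump and exchanger genes passed in limma in any of 18 alternative fits, which covered normalization, variance model, array weights, probe sets, genes tested, the replicate block and left-out arrays. The direction of Atp1b1, Fxyd5 and Slc8a1 held in all of them. With 1 array left out, the log2 change ranged from -0.10 to 0.023 for Atp1b2, from -0.014 to 0.10 for Atp1b3 and from -0.14 to 0.0050 for Fxyd1. The number of these genes without overlap between groups was 0 or 1 (without digoxin replicate 4). Without both digoxin replicate 4 and vehicle replicate 3, Atp1b3 stood at -0.031 and 1 gene had no overlap. The cause of these shifts was not tested.

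Over all genes, 302 passed, 210 higher and 92 lower. Left-out arrays gave 166 (without digoxin replicate 5) to 374 (without vehicle replicate 3) genes, with 123 to 185 higher and 29 (without vehicle replicate 2) to 189 (without vehicle replicate 3) lower, and 170, 174 and 169 without digoxin replicate 2, digoxin replicate 3 and vehicle replicate 2. Without digoxin replicate 1 there were 45 lower. Array weights gave 614 genes, 320 of them lower, and both arrays left out gave 500, with 282 lower.

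The replicate number as a block gave 12 genes, 11 higher and 1 lower, with fewer residual degrees of freedom. Digoxin replicates 4 and 5 have no vehicle array of the same number. The change in that fit therefore compares replicates 1 to 3 of each group alone. Samples of 1 number did not deviate together (r of -0.20, -0.018 and 0.024), and 0 of 6 arrays correlated best with its own number, so the numbers are not taken as pairs. These are the numbers of the sample titles; the array file names number the hearts differently, and that numbering was not tried. With the block, limma adjusted p values were 0.590 for Atp1b1, 0.0917 for Sgk1, 0.194 for Hsd11b1, 0.155 for Egfr and 0.204 for Tfdp2.

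Neighbouring genes near 0 changed sign. Rnf7 stood at -0.076 with array weights, Nme7 at -0.037 with the block, and without both arrays Nme7 stood at -0.023, Shbg at 0.00043, Rnf7 at -0.058 and Fam187b at 0.011. With 1 array left out, Nme7 ranged from -0.023 to 0.079, Shbg from -0.053 to 0.0023, Rnf7 from -0.059 to 0.14 and Fam187b from -0.14 to 0.0053. Centred values hold no signal level, so dim genes could not be set aside.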

Other observations

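Differences between the 6 genes on the same array cancel a constant added to all values of that array. They do not cancel a wider spread of values, such as that of vehicle replicate 3. Of the 15 pairs, 1 had groups that did not overlap, Atp1b1 against Fxyd1, the beta-1 subunit against phospholemman. Over all genes taken singly, 8.16% had groups without overlap, and the share over pairs of all genes was not computed. The 15 pairs are drawn from the same 6 genes and are not independent. The centred log2 value of Atp1b1 minus that of Fxyd1 was 0.033, 0.073, 0.0051, 0.046 and -0.024 in digoxin replicates 1 to 5, and -0.093, -0.35 and -0.059 in vehicle replicates 1 to 3. The means were 0.027 ± 0.037 (SD, n = 5) and -0.17 ± 0.16 (SD, n = 3). This pair was singled out after its values were seen, so no test is given.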
